A study of Homo sapiens with 24 samples.

Results

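Untreated expression in the lines MOLM-13 and THP-1 was compared gene by gene, in 3 vehicle-only libraries labelled with each line. These 6 libraries were chosen by their labels from the 24 of the series. MOLM-13 and THP-1 are established human acute myeloid leukemia lines with the KMT2A-MLLT3 (MLL-AF9) fusion, grown in RPMI medium with fetal bovine serum, penicillin and streptomycin. Vehicle was PBS with DMSO for 72 h, so these cells had both solvents but no drug. The other libraries, 3 for each line and treatment, came from cells given L-ascorbic acid (LAA, vitamin C) at 250 µM, olaparib, an inhibitor of PARP1 and PARP2, at 1 µM, or both compounds (the combination) for 72 h. They were used to measure the line difference in libraries that share none with the vehicle comparison, to follow 1 summed level across treatments, and in 1 alternative fit. The labels do not say whether replicates were separate cultures, so each p-value rests on the spread among these libraries alone, and that spread may be technical. The question was which autosomal genes differed between the lines before any drug. Of 55746 autosomal genes in the table, 14864 had enough counts to be tested.

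As background, the KMT2A-MLLT3 fusion protein keeps late HOXA genes and the cofactor gene MEIS1 active in leukemic cells. The lines came from different patients. MOLM-13 is known for an internal tandem duplication in the growth factor receptor gene FLT3, and THP-1 for a mutation in NRAS. Only expression tables were used, so genotypes were not analysed here.

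The libraries labelled MOLM-13 had a profile close to that of the THP-1 libraries, and they are called by their label throughout. Across the 14864 tested autosomal genes, which are not independent replicates, log2(CPM + 1) correlated between libraries of different label with Pearson r from 0.989 to 0.992, against 0.993 to 0.995 within a label. CPM are counts relative to the library total, scaled by trimmed means (TMM). Of the tested genes, 13606 (91.5%) had fitted levels within 1.5-fold of each other. Among 1925 genes at 100 CPM or more in THP-1, only 3 were more than 2-fold lower in the libraries labelled MOLM-13, namely IFI6 (25% of the THP-1 level), TENT5A (32.9%) and IFITM3 (40.1%). Of 1907 genes at 100 CPM or more in the libraries labelled MOLM-13, only MYBPH was more than 2-fold lower in THP-1 (34.5%), and ITGAL came next at 53.1%. TENT5A and ITGAL were picked out by this ranking after values were seen. Which cells the libraries came from was not tested.

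Markers of myeloid cells were present in both groups. All 12 myeloid markers, such as SPI1, CD33, LYZ and CSF1R, were tested. By the test described below 2 were higher and 2 lower, beside 2.83% and 3.03% of all tested genes. Their summed level was 1881 to 1983 CPM in the libraries labelled MOLM-13 and 1892 to 1961 CPM in THP-1. Of markers of other cells, CD3E, LCK, MS4A1, BLK, HBB, KRT5, COL3A1 and DCN had no count in either vehicle group. The 13 T and NK markers summed to 203 to 224 CPM in the libraries labelled MOLM-13 and 224 to 235 CPM in THP-1, of which CD4, a gene that monocytes also express, gave 186 and 155 CPM on average and NCAM1 10.7 and 55.8 CPM. B cell, erythroid and megakaryocyte, and epithelial and fibroblast markers each summed to 4.84 to 19.4 CPM. Total counts were 19656188 to 25265870 per library, mitochondrially encoded genes took 6.67 to 7.49% of counts, and 15295 to 15868 genes had at least 10 counts. Labelled MOLM-13 replicate 1 stood apart from the other libraries of its group, with a chi-square per degree of freedom of 14.2 and 15.3 against them, where the other pairs within a group gave 4.02 to 6.18. No pair of replicates differed by less than the sampling noise. Main counts are therefore also given without that library.

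In the vehicle comparison 870 of 14864 autosomal genes (5.85%) were called, meaning a Benjamini-Hochberg adjusted p under 0.05 in edgeR's quasi-likelihood test. Of these, 420 (2.83%) were higher and 450 (3.03%) lower in the libraries labelled MOLM-13. At least 2-fold differences numbered 200 (1.35%), 104 higher (0.7%) and 96 lower (0.646%). Without labelled MOLM-13 replicate 1 the test called 1044 genes, among them 752 of the 870, and 193 differed at least 2-fold. Without THP-1 replicate 1, 2 or 3 it called 550, 519 and 519, and 169, 173 and 169 differed at least 2-fold. The groups' libraries did not overlap at 3541 genes (23.8%). In bulk RNA, fewer cells with a transcript and less of it per cell cannot be told apart.

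**Figure D1:**
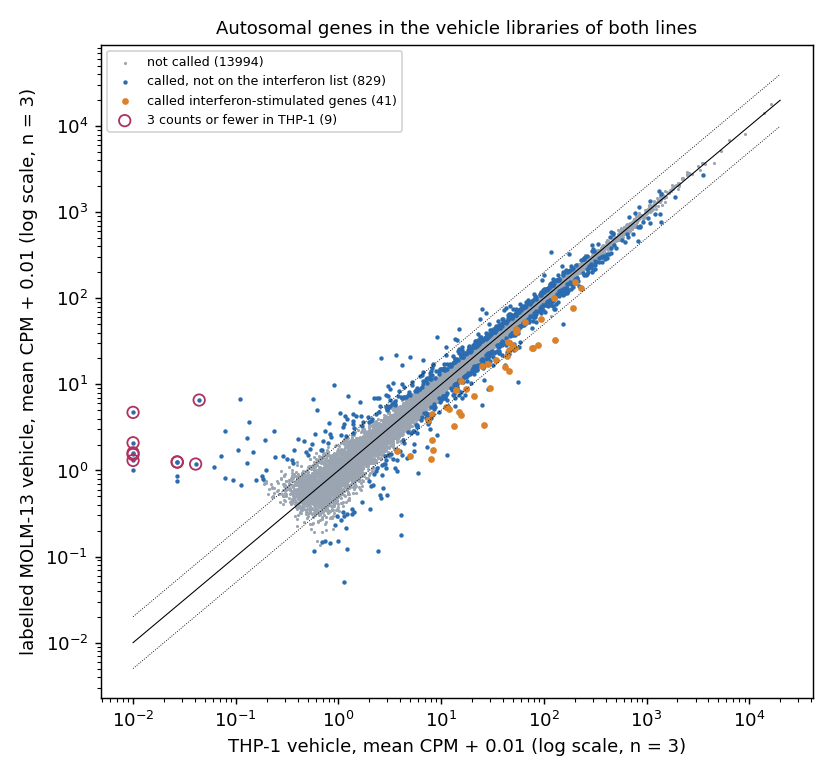
Mean CPM + 0.01 of 14864 autosomal genes in THP-1 vehicle libraries (x axis, log scale, n = 3) and libraries labelled MOLM-13 (y axis, log scale, n = 3), with the line of equal levels and dotted lines at 2-fold. Most genes lie along the line; the 41 called interferon-stimulated genes (orange) lie below it, and 9 circled genes have 3 counts or fewer in THP-1.

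The genes at least 2-fold higher in the libraries labelled MOLM-13 were mostly weakly expressed. Their median level was 3.52 CPM there and 0.824 CPM in THP-1, 22 of 104 reached 10 CPM, and 54 were under 1 CPM in THP-1. Protein-coding genes made up 94 of the 104. The genes at least 2-fold lower had a median of 1.49 CPM in the libraries labelled MOLM-13 and 4.09 CPM in THP-1. Of these 96, 87 were protein-coding, 31 reached 10 CPM in THP-1, and 21 were on the interferon list described next.

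Type I interferons signal through the receptor subunits IFNAR1 and IFNAR2 to a transcription factor complex that holds STAT2 and IRF9. That complex binds a promoter sequence, the interferon-stimulated response element, and switches on genes whose products block viral entry, translation and RNA. The core of that element was searched as GAAANNGAAA or its reverse complement TTTCNNTTTC in the 250 bases before each start site of RefSeq promoters (GRCh38.p14). It was found in 24 of 36 interferon-list genes with a promoter entry (66.7%) and in 22 of 32 that were called lower. Among all tested autosomal genes with an entry it was found in 351 of 10211 (3.44%), and among all promoter entries in 1061 of 35116 (3.02%). Of the other genes at least 2-fold lower, 3 of 46 held it, namely AXL, JAML and ZFP36L1, and of those at least 2-fold higher 6 of 73. A match is a description of letters, not a test of binding. Part of 4 promoters is shown. IFI27 had the largest difference of the list and IFI6 the smallest adjusted p, and ISG15 and IFIT1 were picked for their roles as a modifier and an RNA-binding effector; the matches are in capitals, and overlapping matches run together.
IFI27: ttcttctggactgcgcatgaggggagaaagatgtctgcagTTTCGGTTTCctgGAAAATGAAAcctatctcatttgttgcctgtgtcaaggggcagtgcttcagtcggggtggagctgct
IFI6: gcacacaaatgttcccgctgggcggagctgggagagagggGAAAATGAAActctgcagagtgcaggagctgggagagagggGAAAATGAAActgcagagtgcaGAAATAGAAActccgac
ISG15: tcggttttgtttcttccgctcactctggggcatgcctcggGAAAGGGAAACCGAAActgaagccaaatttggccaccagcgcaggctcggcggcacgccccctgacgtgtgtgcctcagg
IFIT1: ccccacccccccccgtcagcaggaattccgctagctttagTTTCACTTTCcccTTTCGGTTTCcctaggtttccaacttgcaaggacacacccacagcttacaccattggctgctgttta
Each is 120 bases, 5′ to 3′ on the gene's strand. They lie at chr14:94110588-94110707 (plus strand, IFI27), chr1:27672269-27672388 (minus strand, IFI6), chr1:1013344-1013463 (plus strand, ISG15) and chr10:89392467-89392586 (plus strand, IFIT1). The matches begin 108 and 95 bases before the start of IFI27, 116 and 103 before IFIT1, 113 and 107 before ISG15, and between 156 and 93 before IFI6, which has 3. The RefSeq start of IFI27 lies inside the gene's span in the deposited table.

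Interferon-stimulated genes were lower in the libraries labelled MOLM-13. Of 45 tested members 41 were called lower and 0 higher (91.1%, against 3.03% of all tested autosomal genes), all 45 differences were negative, and the median log2 difference (labelled MOLM-13 minus THP-1) was -0.96, against 0.002 over all tested genes. Without labelled MOLM-13 replicate 1, 41 were called lower. The lowest count without any single library was 33, without THP-1 replicate 1. The list was chosen with earlier results of these data known.

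IFI27, a small mitochondrial and nuclear envelope protein gene, was at 1.78, 2.62 and 5.80 CPM in the libraries labelled MOLM-13 and at 28.7, 24.3 and 24.5 CPM in THP-1. The groups did not overlap, and labelled MOLM-13 replicate 3 was the highest of its group. Its log2 difference was -2.89 ± 0.24 (SE, n = 3 and 3; edgeR adjusted p = 1.13e-07), a 7.44-fold lower level. IFI27 lies on chromosome 14 from 94104836 to 94116698 (hg38, plus strand, ENSG00000165949).

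IFI6, which protects cells from virus-induced death, was the most abundant gene of this group with a 2-fold difference besides IFITM3. It was at 28.1, 30.0 and 39.1 CPM in the libraries labelled MOLM-13 and at 125, 134 and 129 CPM in THP-1, a log2 difference of -1.99 ± 0.10 (edgeR adjusted p = 1.2e-10). IFI6 lies on chromosome 1 from 27666061 to 27672218 (minus strand). ISG15, a ubiquitin-like modifier, was at 24.8, 25.5 and 28.7 CPM against 80.3, 69.4 and 80.3 CPM, 2.91-fold lower. Its conjugating enzyme UBE2L6 was 2.02-fold lower and USP18, which removes ISG15 from proteins, 2.31-fold lower. So the modifier, 1 enzyme that attaches it and 1 that removes it were all lower.

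Effector genes, named here for their role, were lower by different amounts. IFIT1, IFIT2 and IFIT3, which bind viral RNA or each other, were 3.59-, 3.14- and 2.88-fold lower. IFIT5 was 1.77-fold lower. The restriction factors MX1 and MX2 were 3.44- and 3.36-fold lower, MX2 at 7.53, 12 and 7.45 CPM against 29.6, 30.6 and 29.8 CPM. OAS1, OAS2 and OAS3, which make the activator of RNase L, were 2.62-, 3.06- and 2.94-fold lower, and the related OASL 3.63-fold lower. RSAD2 (viperin) was 2.04-fold lower, EPSTI1 4.05-fold lower, IFI44 and IFI44L 6- and 4.81-fold lower.

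The IFITM genes, which block viral entry, lie side by side on chromosome 11 and differed in size of change. IFITM1 was 3.16-fold lower (14.5 ± 1.25 against 45.7 ± 3.54 CPM, SD), IFITM3 2.49-fold lower (76.5 ± 3.36 against 191 ± 11.5 CPM) and IFITM2 1.24-fold lower (101 ± 3.90 against 125 ± 4.11 CPM). Their sequences are alike enough that the counting could split reads between them, so these sizes are uncertain. The membrane tether BST2 was 1.30-fold lower.

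Of the signalling genes, the receptor subunits were not called, and the factor IRF7 was lower. IFNAR1 was at 96.3 ± 6.81 and 93.8 ± 4.58 CPM, a log2 difference of 0.04 (95% interval -0.11 to 0.19), and was not called. IFNAR2, at 5.91 ± 0.148 against 4.28 ± 0.55 CPM, was not called either (edgeR adjusted p = 0.142, log2 difference 0.47, interval 0.10 to 0.84). IRF7, an amplifying factor, was 1.83-fold lower (24.9 ± 2.48 against 45.4 ± 4.43 CPM). The 4 members not called were STAT2 (edgeR adjusted p = 0.0927), IRF9 (0.584), PLSCR1 (0.0694) and LAP3 (0.0943), with log2 differences of -0.25, -0.43, -0.24 and -0.22. Receptors and these 4 were named for their role or their count, outside the rule for named genes.

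Among 16 tested sensors of nucleic acid, 4 were lower and 1 higher, where 3.03% of all tested autosomal genes were lower and 2.83% higher. IFIH1 (MDA5, a sensor of double-stranded RNA) was 1.65-fold lower, EIF2AK2 (PKR) 1.6-fold, ADAR, which edits double-stranded RNA, 1.40-fold, and IFI16 1.97-fold. IFI16 is also on the interferon list, so it is counted in both. SAMHD1, which degrades deoxynucleotides, was 1.31-fold higher, at 595 ± 35.9 against 455 ± 12.1 CPM. The genes encoding interferon beta, omega and several alpha interferons on chromosome 9 had too few counts to be tested. SIGLEC1, a sialic acid receptor of macrophages known as an interferon-inducible marker, was not on the list. It was at 7.30, 9.36 and 9.96 CPM against 29.5, 28.2 and 27.8 CPM, 3.21-fold lower (edgeR adjusted p = 1.34e-08).

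**Figure D2:**
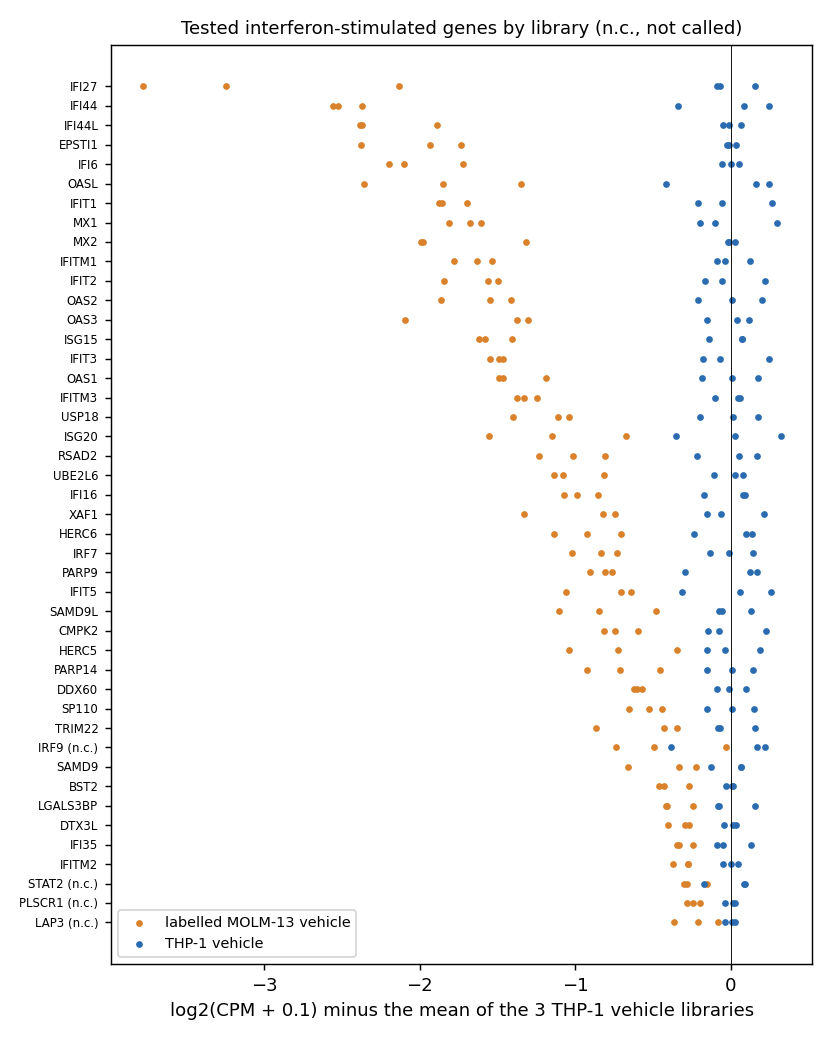
For 44 of the 45 tested interferon-stimulated genes, log2(CPM + 0.1) in each vehicle library minus the mean of the 3 THP-1 libraries (x axis), with libraries labelled MOLM-13 in orange and THP-1 in blue. IFI27 reaches the lowest values, the orange points of called genes lie left of the THP-1 points, and the 4 genes marked n.c. were not called.

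Among the genes higher in the libraries labelled MOLM-13, FLT3 is the receptor tyrosine kinase mutated in the MOLM-13 line. FLT3 was at 37.7, 35.7 and 33.7 CPM against 9.56, 8.78 and 9.14 CPM in THP-1. The groups were far apart and each was tight. The log2 difference was 1.96 ± 0.10 (3.89-fold, edgeR adjusted p = 1.68e-10). FLT3 lies on chromosome 13 from 28003274 to 28100592 (hg38, minus strand, ENSG00000122025).

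SOCS2, a STAT5-induced brake on cytokine signalling, was at 22.5, 22.6 and 20.7 CPM against 2.78, 3.83 and 4.34 CPM, 6.06-fold higher (log2 difference 2.60 ± 0.15, edgeR adjusted p = 7.3e-10). Of 29 tested genes of RAS, STAT and PI3K feedback, SOCS2 was the only one called higher, and DUSP4, a phosphatase of MAP kinases, the only one called lower (1.33-fold, 19.1 ± 1.14 against 25.3 ± 2.27 CPM). Both together make 6.9% of that list, near the 5.85% called among all tested genes. The DUSP4 call was lost without THP-1 replicate 3 (edgeR adjusted p = 0.123). The cytokine receptor list had 3 of 32 higher and 2 lower, beside 2.83% and 3.03% of all tested genes. Besides FLT3, the chemokine receptor CCR2 was 1.25-fold higher, the interleukin 6 receptor gene IL6R 1.29-fold lower and CSF1R, the macrophage growth factor receptor, 1.27-fold lower. CCR1 was 1.30-fold higher, a call lost without THP-1 replicate 2 (edgeR adjusted p = 0.0853). KIT was at 1.47 ± 0.267 and 1.26 ± 0.491 CPM and not called.

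CDKN1A (p21), which stops the cell cycle, was 1.24-fold higher (144 ± 4.31 against 116 ± 2.67 CPM, edgeR adjusted p = 0.00382). MDM2, a ubiquitin ligase gene, was at 111 ± 3.32 and 107 ± 8.76 CPM and not called (log2 difference 0.05, interval -0.10 to 0.20).

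Further genes chosen by size had varied roles. PRSS57, a serine protease of neutrophil granules, was at 21.2, 20.9 and 19.3 CPM against 2.95, 2.77 and 2.09 CPM, the largest increase of the rule (7.79-fold). CD38, an ectoenzyme that consumes NAD, was at 75.9 ± 5.32 against 24.8 ± 2.75 CPM (3.05-fold). MYBPH, a myosin-binding protein gene, was the most abundant of them, at 353, 329 and 345 CPM against 124, 117 and 113 CPM (2.90-fold, edgeR adjusted p = 1.9e-11). The Notch ligand gene JAG1 was 4.07-fold higher, the cytoskeletal linker gene EPB41L3 4.21-fold and RGS16, a regulator of G protein signalling, 2.49-fold.

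Among the genes higher in THP-1, NCAM1 (CD56), an adhesion molecule of natural killer cells that some myeloid leukemias express, was at 9.71, 12.8 and 9.60 CPM against 56.6, 57.1 and 53.7 CPM. That is 5.24-fold lower in the libraries labelled MOLM-13 (log2 difference -2.39 ± 0.10, edgeR adjusted p = 2.92e-11). NCAM1 lies on chromosome 11 from 112961247 to 113278436 (plus strand). NCAM1 is 1 of 13 T and NK markers, of which 6 were tested, 1 was higher and 2 lower, beside 2.83% and 3.03% of all tested genes. LCK and CD3E had no counts in either vehicle group. VCAN, a matrix proteoglycan gene of monocytes, was at 4.59, 6.69 and 6.11 CPM against 23.2, 23.8 and 28.5 CPM, 4.33-fold lower.

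Several genes were all but silent in THP-1. In all, 9 genes summed to 3 counts or fewer in the THP-1 vehicle group and at least 1 CPM in the libraries labelled MOLM-13, and 1 gene showed the reverse. RAB34, a small GTPase gene, was at 8.28, 6.21 and 5.21 CPM against 0, 0 and 0.102 CPM (447 against 2 counts), a ratio of 207 with a counting interval of 56.9 to 1713. DLX5, a homeobox gene, was at 5.03, 5.09 and 4.04 CPM and at 0 in THP-1, at least 99.0-fold higher against a floor of 3 counts over the THP-1 group (0.0473 CPM). Intervals and floors cover counting error only.

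MTAP, an enzyme gene of methionine salvage, was at 1.96, 2.42 and 1.88 CPM and at 0 in all THP-1 libraries of the series, at least 43.8-fold higher on that floor. On log2(FPKM + 1) in limma its call was lost (adjusted p = 0.0523). Bounds for ZFP57, a regulator of imprinting, NFE4 and KLHL9, a ubiquitin ligase adaptor, were 33.9, 31.8 and 26.8. IGF2BP3, CNR2 and SH3RF3 had 1, 1 and 2 counts in THP-1, with ratios of 81.5 (interval 14.2 to 3253), 76.8 (13.4 to 3070) and 37.0 (9.92 to 311). The reverse gene was DPP10, at 0.041 ± 0.0393 against 1.13 ± 0.479 CPM with 3 against 74 counts. That makes it 26.7-fold lower (interval 8.77 to 132), and its call was lost on both FPKM scales (limma adjusted p = 0.16 and 0.053).

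Neighbours were sought among protein-coding autosomal genes with at least 20 counts in a vehicle group, and genes with fewer counts were passed over. On that basis KLHL9 and MTAP were the only neighbours silent in 1 group. They span chromosome 9 from 21329671 to 21937651 (hg38), and no run of 3 or more was found. MTAP lies next to CDKN2A, the gene of p16, often lost with it in cancers. CDKN2A had no counts in any of the 24 libraries, so it could not enter a run. Of 12 tested genes of that chromosome arm region MTAP and KLHL9 were called (16.7%, beside 5.85% of all tested genes). MLLT3, the fusion partner gene, was at 11.8 ± 0.774 and 10.0 ± 1.27 CPM and not called (log2 difference 0.23, interval -0.04 to 0.51).

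The summed level of the 9 genes differed between treatments among the libraries labelled MOLM-13. It was 22, 23.6 and 19.2 CPM in the vehicle libraries labelled MOLM-13, 3.53, 3.25 and 3.45 CPM with LAA, 13.5, 11.7 and 13.3 CPM with olaparib, and 3.62, 2.11 and 2.89 CPM with the combination. These means were 15.8%, 59.4% and 13.3% of the vehicle mean. No THP-1 library of any treatment was above 0.307 CPM. In the libraries labelled MOLM-13, only LAA and the combination overlapped. No test was made of this sum, since the genes were chosen on the vehicle libraries.

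**Figure D3:**
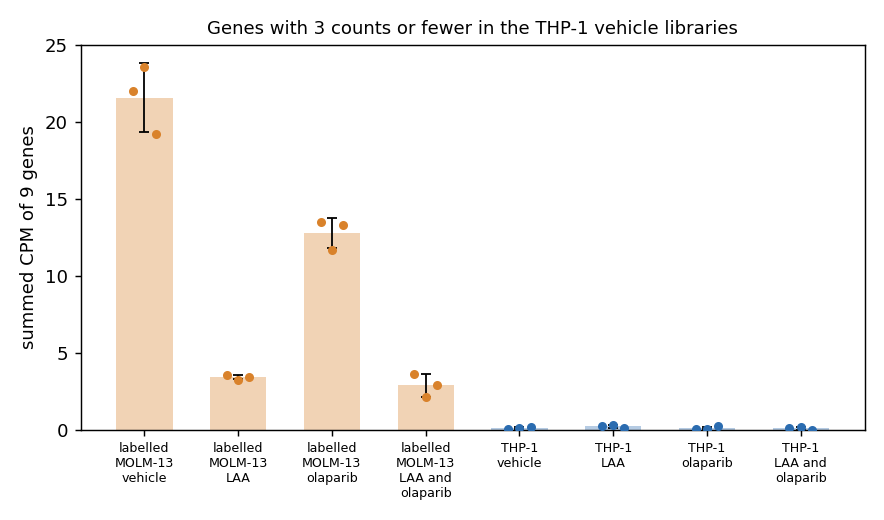
Summed CPM (y axis, from 0) of the 9 genes with 3 counts or fewer in THP-1 vehicle libraries, by label and treatment; bars are means, whiskers SD and points the 3 libraries. Libraries labelled MOLM-13 lie at 19.2 to 23.6 CPM with vehicle, 11.7 to 13.5 with olaparib and 2.11 to 3.62 with LAA or the combination, and THP-1 libraries at 0.307 or less.

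The HOXA genes of the fusion program did not pass the test. HOXA9, a central HOX target, was at 62.0, 57.3 and 54.4 CPM against 52.1, 60.2 and 50.2 CPM, so the groups overlapped (log2 difference 0.10, interval -0.08 to 0.27). HOXA10 was at 67.0 ± 3.35 and 68.7 ± 3.56 CPM (log2 difference -0.04, interval -0.19 to 0.12). Of 10 tested HOXA genes none was called, beside 5.85% of all tested genes. KMT2A itself was at 27.1 ± 4.13 and 28.8 ± 2.21 CPM (log2 difference -0.09, interval -0.31 to 0.14). Such intervals leave room for differences up to their bounds, and an uncalled gene was not shown to be equal.

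Of 22 tested fusion targets and cofactors MEIS1 alone was called (4.55%, below the 5.85% called among all tested genes). It was at 3.39, 4.70 and 2.90 CPM in the libraries labelled MOLM-13 and at 0.125, 0.202 and 0.051 CPM in THP-1 (247 against 8 counts). The log2 difference was 4.79 ± 0.44 (27.8-fold, edgeR adjusted p = 5.71e-07). MEIS1 lies on chromosome 2 from 66433452 to 66573869 (plus strand). MYB, at 355 ± 17.0 and 347 ± 16.1 CPM, and MEF2C, at 166 ± 12.7 and 177 ± 5.27 CPM, were not called. In the other HOX clusters 2 of 8 tested genes were higher, beside 2.83% of all tested genes. They were HOXC4 (0.994 ± 0.355 CPM, 0 counts in THP-1) and HOXC6. HOXC6 was at 0.666 ± 0.0681 against 0.102 ± 0.102 CPM, and its call was lost without labelled MOLM-13 replicate 2 or 3 or THP-1 replicate 1 or 2 (edgeR adjusted p = 0.0637, 0.106, 0.136 and 0.124).

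Of 14 tested stem and progenitor markers 4 were higher and 0 lower, beside 2.83% of all tested genes higher. They were FLT3, SOCS2, CD38 and GPR183, a chemotactic receptor gene 1.58-fold higher (12.9 ± 0.245 against 8.17 ± 2.25 CPM). The GPR183 call was not checked without single libraries. CD34 had too few counts to be tested, at 0.211 ± 0.123 and 0.414 ± 0.194 CPM.

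Granule genes went in both directions. Azurophil granules are the enzyme stores of neutrophil precursors and monocytes. Of 27 tested genes 6 were higher and 7 lower (2.83% and 3.03% of all tested genes), with a median log2 difference of -0.10. The count of higher genes depended on single libraries, and was 2 without THP-1 replicate 2 and 3 without THP-1 replicate 3 or labelled MOLM-13 replicate 2; lower genes numbered 10 without labelled MOLM-13 replicate 1 and 6 otherwise. CTSG (cathepsin G) was at 512, 414 and 478 CPM against 835, 816 and 849 CPM, 1.78-fold lower (edgeR adjusted p = 2.63e-07). The serpin gene SERPINB10 was 1.58-fold lower. PRSS57 and CST7, an inhibitor of cathepsins at 6.25 ± 1.28 against 1.63 ± 0.510 CPM, were higher.

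ELANE, neutrophil elastase and a very abundant transcript here, was at 1510 ± 120 against 1890 ± 47.9 CPM (1.25-fold lower, edgeR adjusted p = 0.00621). Its call was lost with all 24 libraries in the fit (edgeR adjusted p = 0.0518). It was also lost on log2(FPKM + 1) and log2(FPKM + 0.1) (limma adjusted p = 0.1415 and 0.1471). BPI, a bactericidal protein gene, was at 0.846, 1.02 and 0.588 CPM against 0.208, 0 and 0 CPM, and its call was lost without labelled MOLM-13 replicate 2 or THP-1 replicate 2 or 3 (edgeR adjusted p = 0.0507, 0.0896 and 0.0825). MPO (myeloperoxidase) was at 8.67 ± 0.106 against 5.69 ± 1.23 CPM, 1.52-fold higher, a call lost without labelled MOLM-13 replicate 2 or 3 or THP-1 replicate 1 or 2 (edgeR adjusted p = 0.0657, 0.0909, 0.0991 and 0.175). LYZ (lysozyme), at 137 ± 10.7 and 146 ± 7.71 CPM, was not called.

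Among monocyte and macrophage genes, CD14 and VCAN were lowest relative to THP-1. Of 32 tested 12 were lower and 2 higher (37.5% and 6.25% against 3.03% and 2.83% of all tested genes), with a median log2 difference of -0.27. CD14, the lipopolysaccharide coreceptor, was at 1.34, 1.55 and 1.25 CPM against 4.41, 5.55 and 4.08 CPM, 3.39-fold lower (edgeR adjusted p = 0.000106). The Fc receptor genes FCGR1A and FCGR2A were 1.32- and 1.29-fold lower, the beta 2 integrin gene ITGB2 1.27-fold and MNDA, a nuclear antigen of myeloid cells, 1.40-fold. FCGR1A, FCGR2A and ITGB2 were not checked one by one without single libraries. ITGAM (CD11b) was at 71.1 ± 4.90 and 68.5 ± 1.10 CPM and not called. Without THP-1 replicate 2 or 3, 9 were lower. The 2 higher genes were NCF1, described next, and ITGAX (CD11c). ITGAX was at 28.1 ± 1.35 against 22.3 ± 2 CPM, and its call was lost without labelled MOLM-13 replicate 2 or 3 or THP-1 replicate 2 or 3 (edgeR adjusted p = 0.124, 0.13, 0.176 and 0.224), which leaves 1 higher gene. Without THP-1 replicate 1 there were 3.

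NCF1, the p47 subunit of the phagocyte oxidase, was 2.41-fold higher (57.7 ± 6.97 against 23.9 ± 2.44 CPM). NCF1 has near-identical pseudogene copies, so how its reads were divided is uncertain. The copies NCF1B and NCF1C, looked at for that reason, were 2.93- and 2.47-fold higher.

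Among 39 tested myeloid transcription factors 5 were higher and 4 lower, beside 2.83% and 3.03% of all tested genes. JUN was at 17.2, 17.7 and 16.1 CPM against 40.8, 42.5 and 41.8 CPM, 2.45-fold lower (edgeR adjusted p = 9.57e-09). Its dimer partner FOS was 1.69-fold lower (74.6 ± 4.31 against 126 ± 13.8 CPM) and CEBPD, which drives late myeloid maturation, 1.39-fold lower. CEBPA, a master factor of granulocyte and monocyte precursors, was 1.18-fold higher (523 ± 20.2 against 445 ± 14.8 CPM), and NFE2 was 1.52-fold higher. By adjusted p CEBPA ranked behind NFE2, IKZF1 and EGR3, and its call was not checked without single libraries. The calls of EGR3 (2.09-fold higher) and IKZF1 (1.23-fold higher) were lost without single libraries, with edgeR adjusted p up to 0.148 without labelled MOLM-13 replicate 3 and 0.125 without THP-1 replicate 3. SPI1 (PU.1) was at 331 ± 8.41 and 337 ± 2.56 CPM and not called.

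Genes of the enzymes that olaparib inhibits were not called before treatment. PARP1 was at 642 ± 12.7 and 606 ± 9.57 CPM (log2 difference 0.08, interval -0.04 to 0.21) and PARP2 at 29.2 ± 2.58 and 30.7 ± 3.68 CPM (log2 difference -0.07, interval -0.28 to 0.14), and neither was called. Of 38 tested PARP family and inhibitor response genes 3 were lower and 0 higher (7.89%, near the 5.85% called among all tested genes). PARP9 and PARP14, also on the interferon list, were 1.80- and 1.62-fold lower. PARP12, the third, was 1.32-fold lower, and its call was lost when any single library other than labelled MOLM-13 replicate 1 was left out (edgeR adjusted p from 0.0624 to 0.189). SLFN11, linked to the response of cells to DNA-damaging drugs, was at 102 ± 6.91 and 106 ± 4.12 CPM and not called.

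TET1, TET2 and TET3, which oxidize methylated cytosine with ascorbate as a cofactor, were not called, with log2 differences of 0.14 (interval -0.24 to 0.51), -0.10 (-0.30 to 0.09) and -0.05 (-0.23 to 0.14). Neither were the DNA methyltransferase genes DNMT3A and DNMT3B or the glycosylase gene TDG. Of 26 tested genes of that list 3.85% were called, below the 5.85% among all tested genes. IDH1, an enzyme that makes 2-oxoglutarate, was called higher (1.18-fold). Its call was lost without labelled MOLM-13 replicate 2 or THP-1 replicate 1, 2 or 3 (edgeR adjusted p = 0.0969, 0.132, 0.25 and 0.0705). Of 37 tested homologous recombination and Fanconi genes 2 were higher and 0 lower (5.41%, below the 5.85% called among all tested genes). UBE2T, the ubiquitin-conjugating enzyme of the Fanconi pathway, was 1.38-fold higher (65.0 ± 3.96 against 47.1 ± 2.02 CPM). FANCI, which the pathway ubiquitinates, was 1.2-fold higher, a call lost when any single library other than labelled MOLM-13 replicate 1 was left out (edgeR adjusted p from 0.0733 to 0.24).

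Transporters that carry vitamin C differed. SLC23A2, the sodium-dependent ascorbate transporter, was at 30.0, 35.2 and 32.8 CPM against 22.2, 22.6 and 23.5 CPM, 1.43-fold higher (edgeR adjusted p = 0.00105). SLC2A3 (GLUT3), which moves glucose and oxidized ascorbate, was at 19.7, 19.8 and 17.3 CPM against 6.65, 6.41 and 6.79 CPM, 2.86-fold higher (edgeR adjusted p = 8.2e-08). SLC2A1 (GLUT1) was 1.23-fold lower (301 ± 12.8 against 369 ± 10.8 CPM), a call lost without THP-1 replicate 3 (edgeR adjusted p = 0.059). On deposited FPKM, a per-length scale that allows genes to be compared, SLC2A1 at 63.6 and 78.2 FPKM stood above SLC2A3 at 3.07 and 1.07 FPKM in both groups. In all, 2 of 10 tested genes were higher and 2 lower, beside 2.83% and 3.03% of all tested genes. The other lower gene was GLRX. Its call was lost without labelled MOLM-13 replicate 3 or THP-1 replicate 2 or 3 (edgeR adjusted p = 0.109, 0.118 and 0.063), and on both FPKM scales.

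Antigen presentation genes differed in both directions. Of 14 tested MHC class II genes 3 were lower (3.03% of all tested genes) and 0 higher, among them the invariant chain gene CD74 (151 ± 5.70 against 206 ± 5.80 CPM, 1.36-fold) and HLA-DRB5 (1.51-fold). HLA-DPB1 was at 0.195 and 0.751 CPM and not called (edgeR adjusted p = 0.051, log2 difference -1.95). Of 19 tested class I and peptide loading genes 5 were lower and 3 higher, beside 3.03% and 2.83% of all tested genes. The higher calls of HLA-E and HLA-C were lost without THP-1 replicate 1, 2 or 3 (edgeR adjusted p from 0.0664 to 0.0974 and from 0.0791 to 0.104). B2M, the class I light chain, was 1.27-fold lower and the peptide-trimming aminopeptidase gene ERAP2 2.08-fold higher (6.56 ± 0.404 against 3.14 ± 0.383 CPM). HLA genes share sequence and differ between people, so reads of one allele may be counted less well than those of another, and their values are uncertain.

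Of 22 tested chemokines and inflammatory cytokines 5 were higher and 2 lower, beside 2.83% and 3.03% of all tested genes. TNF, a central inflammatory cytokine, was at 34.7, 29.0 and 27.7 CPM against 20.3, 19.4 and 25 CPM, 1.41-fold higher. Its call was lost without THP-1 replicate 1 or 2 (edgeR adjusted p = 0.0576 and 0.0778). VEGFA, an angiogenic growth factor, was 1.26-fold higher and TGFB1 1.17-fold. By adjusted p these ranked behind TNF, CCL22 and TNFAIP3, and the VEGFA and TGFB1 calls were not checked without single libraries. The other higher genes were CCL22 (1.40-fold) and TNFAIP3 (1.44-fold), and the lower ones CXCL8 (2.35-fold) and NFKBIA (1.23-fold). These 4 calls were lost without single libraries: THP-1 replicate 2 for CCL22 (edgeR adjusted p = 0.0798), labelled MOLM-13 replicate 3 or THP-1 replicate 2 or 3 for TNFAIP3 (up to 0.131), labelled MOLM-13 replicate 3 or any THP-1 replicate for CXCL8 (up to 0.118), and any library but labelled MOLM-13 replicate 1 for NFKBIA (up to 0.155).

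Of 16 tested BCL2 family genes 1 was higher and 0 lower (6.25%, near the 5.85% called among all tested genes). That gene, BCL2A1, was at 0.78 ± 0.296 against 0.174 ± 0.0272 CPM, and its call was lost when any single one of the 6 libraries was left out (edgeR adjusted p from 0.0559 to 0.147), which leaves 0. Of 14 tested imprinted genes and regulators ZFP57 alone was called, and it was higher (7.14%, near the 5.85% called among all tested genes). Of 7 tested germline genes none was called, beside the same 5.85%.

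**Figure D4:**
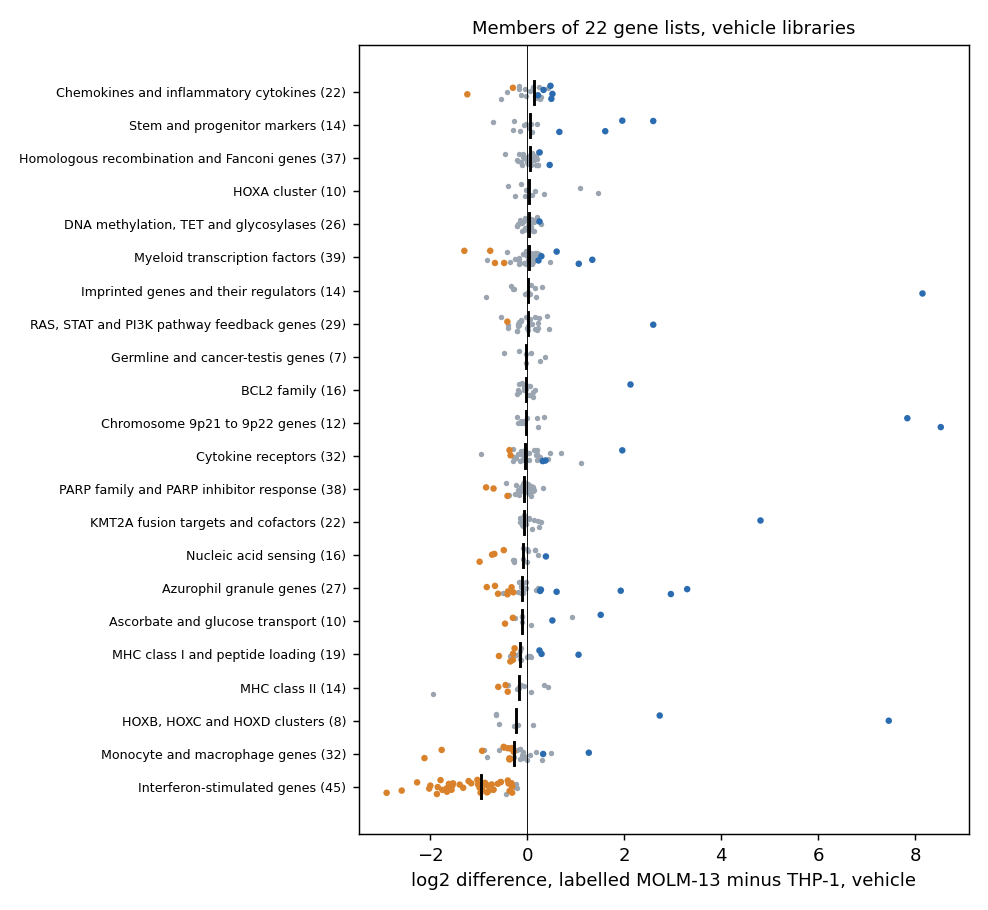
Log2 differences (labelled MOLM-13 minus THP-1, vehicle, x axis) of tested members of 22 gene lists (y axis, number tested in brackets); blue points were called higher, orange lower, grey not called, and bars are medians. The interferon list lies furthest left with a median of -0.96; fitted values far to the right belong to genes with 0 counts in THP-1, such as MTAP and ZFP57, and are not bounds.

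Called genes lay on every autosome. The median log2 difference of tested genes ran from -0.04 on chromosome 21 to 0.06 on chromosome 13, where FLT3 lies. The share of genes called ran from 3.29% on chromosome 9 to 9.09% on chromosome 13 (19 higher and 6 lower). On chromosome 1, where IFI6, ISG15 and IFI44 lie, it was 8.91% (62 higher and 83 lower). The part of the named genes in these values was not tested.

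The same label difference was then measured within each treatment, in libraries that share none with the vehicle comparison. Mitochondrially encoded genes took 8.22 to 11% of counts in the libraries labelled MOLM-13 with olaparib and 6.63 to 7.12% in THP-1. With LAA they took 7.01 to 8.14% and 6.94 to 7.7%, and with the combination 8.73 to 9.31% and 7.77 to 9.47%. The part of this share in the results was not tested. With LAA 294 of 14777 autosomal genes (1.99%) were called, with olaparib 509 of 14801 (3.44%) and with the combination 2567 of 14840 (17.3%). Single libraries moved these counts by more than 1.5-fold. The LAA count was 149, 445 and 456 without labelled MOLM-13 replicate 1, 2 or 3 and 154, 176 and 132 without THP-1 replicate 1, 2 or 3. The olaparib count was 282 without labelled MOLM-13 replicate 1 and 216 and 253 without THP-1 replicate 1 or 3. The combination count was 1659 and 1554 without labelled MOLM-13 replicate 2 or 3. Interferon-stimulated genes were lower in the libraries labelled MOLM-13 each time. The test called 44 of 46 lower with LAA, 39 of 45 with olaparib and 45 of 46 with the combination, with medians of -1.56, -0.98 and -1.69. Of all tested genes 1.49%, 2.06% and 9.84% were called lower. IFI27 was at 9.15 ± 2.77 against 118 ± 12.4 CPM with LAA (12.8-fold lower), 3.77 ± 0.505 against 31.7 ± 10.3 CPM with olaparib (8.40-fold) and 35.7 ± 9.68 against 464 ± 56.4 CPM with the combination (12.8-fold).

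Of the 96 genes at least 2-fold lower with vehicle, 61 of 92 tested were also called lower with LAA, 64 of 92 with olaparib and 67 of 90 with the combination, and none was called in the opposite direction. Their median log2 difference was -1.67 with vehicle, over all 96, and -1.58, -1.49 and -1.66 with the treatments, over those tested there. The 96 were chosen for their size in the vehicle libraries. NCAM1 was 5.55-, 5.47- and 7.68-fold lower and VCAN 4-, 4.42- and 3.48-fold lower with LAA, olaparib and the combination.

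The 104 genes at least 2-fold higher with vehicle had smaller median differences in the treated libraries. With olaparib 51 of 86 tested were called higher, with LAA 20 of 74 and with the combination 20 of 72, where 3 were called lower. Of all tested genes 1.38%, 0.501% and 7.46% were called higher in that order. Their median log2 difference was 1.88 with vehicle, over all 104. It was 1.15, 0.62 and 0.54 with olaparib, LAA and the combination, over those tested there. DLX5 and MTAP, among the largest vehicle differences, were not tested with LAA or the combination. The 104 were chosen for their size in the vehicle libraries, and that choice by itself favours a larger vehicle median. These differences between treatments were not tested.

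FLT3 in the libraries labelled MOLM-13 was at 24.9 ± 3.46 CPM with olaparib, 7.83 ± 1.65 with LAA and 10.0 ± 0.934 with the combination, and in THP-1 at 9.45 ± 1.24, 6.69 ± 0.788 and 11.1 ± 0.721 CPM. The label difference of FLT3 was called with olaparib (2.64-fold higher, edgeR adjusted p = 4.27e-05) and not with LAA or the combination (edgeR adjusted p = 0.676 and 0.558). CD38 was called in each, at 1.75-, 2.95- and 1.66-fold higher with LAA, olaparib and the combination. The summed level of the 9 genes all but silent in THP-1, given above, was also lower with LAA and with the combination than with olaparib, and its part in these results was not tested.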

How the data were processed

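RNA-seq of polyadenylated RNA was deposited for 24 libraries in 8 groups of 3, and the 6 vehicle libraries carry the main comparison. The authors deposited raw counts per gene and FPKM values for 58735 genes. Per the submitters' processing notes, HISAT2, SAMtools and DESeq2 were used with build hg38; their versions, the counting tool and its strand setting were given by no source used here. Per the labels' protocols the kit was NEBNext Ultra, which does not mark strand, so overlapping and antisense genes, and near-identical copies, are uncertain. FPKM served only for levels between genes and for alternatives.

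From the counts, edgeR 4.0.16 in R 4.3.3 fitted the 6 vehicle libraries with TMM scaling, its default filter on low counts and the quasi-likelihood F test. Benjamini-Hochberg adjustment ran over all genes tested, and autosomal genes were then described. Other treatments were fitted the same way on their own 6 libraries. Alternatives used DESeq2 1.42.0 and limma 3.58.1 on log2(FPKM + 1) and log2(FPKM + 0.1). Simulated counts for 15158 genes of the vehicle comparison gave 71.9%, 80.6% and 95.4% of genes changed 1.5-, 2- and 4-fold back, with 12 false calls. The simulation drew each gene independently and let no library stand apart, so these rates may not hold for the measured libraries. Depth ranges stand in the report.

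Members and lists were chosen with earlier results of these data known. Named were the 10 largest differences each way among non-overlapping protein-coding genes at a mean log2 CPM of 3 or more, up to 6 genes silent in 1 line, up to 3 called members per list and direction, and a fixed set of leukemia and drug-target genes. A few genes, and 1 gene list, are not reported here. Other genes were named for their role after their values were seen. Whether each of those other genes kept its call without single libraries or in the alternatives was not checked.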

Additional observations from a re-analysis of the deposited data

Results flagged for a closer look

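For some named genes the log2 difference (labelled MOLM-13 minus THP-1) had opposite signs in vehicle and treated libraries, with no overlap between the labels in either. With vehicle the labels did not overlap at 23.8% of all tested genes. These differences between treatments were not tested. RGS16 was at 1.32 with vehicle and -0.77 with the combination, CDKN1A (p21) at 0.31 and -0.70, both called each time. CST7, a cathepsin inhibitor, was at 1.93 with vehicle and -1.34 with the combination, both called, and at -0.69 with LAA, not called (edgeR adjusted p = 0.233). TNF was at 0.50 with vehicle and -1.17 with the combination, both called, and at -0.56 with LAA, not called (0.0543 by edgeR). The class I genes HLA-E and HLA-C were at 0.25 and 0.30 with vehicle and at -0.51 and -0.58 with the combination; their vehicle calls were lost without THP-1 replicate 1, 2 or 3 and with the replicate number as a block. EPB41L3 and SAMHD1 were called with vehicle, at 2.07 and 0.39, and not with the combination, at -0.40 and -0.0523 (edgeR adjusted p = 0.137 and 0.543). DNMT3A was at -0.21 with vehicle, not called (edgeR adjusted p = 0.169), and at 0.29 with the combination.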

How the results depend on the processing

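No called gene named in the report changed sign under any alternative run. Of 84 called genes named by rule 57 kept their call in every setting and 27 lost it in at least 1. The vehicle count of 870 was 945 with DESeq2, 1095 with no filter, 837 with total-count scaling, 867 with median-of-ratios scaling and 737 with all 24 libraries in the fit, and the interferon count stayed within 33 to 41 without any 1 library. On FPKM + 1 and FPKM + 0.1 limma called 506 and 518. The 200 genes at 2-fold became 38 on FPKM + 1 and 68 when tested against a 2-fold limit. Without 1 library each, counts ran from 519 to 1044 for vehicle, 169 to 193 at 2-fold, 132 to 456 for LAA, 216 to 567 for olaparib and 1554 to 2444 for the combination.

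The LAA count of 294 was 497 with no filter, 560 with all 24 libraries, and 178 and 171 on FPKM + 1 and FPKM + 0.1. The olaparib count of 509 was 858, 783, 249 and 260 in that order, and the combination count of 2567 was 1636 and 1625 on FPKM. Genes silent in THP-1 numbered 5 at a limit of 0 counts, 15 at 10 counts and 1 at 5 CPM; silent in the libraries labelled MOLM-13 were 0, 2 and 0. The cause of these changes was not tested.

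Replicate numbers showed no pairing in the vehicle libraries, the only ones looked at for it. Whether same-numbered libraries shared a batch was not tested, and treated libraries were not looked at. Same-numbered vehicle libraries deviated with r of -0.118, -0.184 and -0.049, and no library correlated best with its own number. With the replicate number as a block, 647 genes were called with vehicle, 184 at 2-fold, 40 interferon genes, 188 genes with LAA, 275 with olaparib and 2752 with the combination.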
